A study of Mus musculus with 6 samples.

Results

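The genes that hold lymphocytes in a tissue or let them leave it were measured in lymphocytes of mice from an ovarian tumor study. They are the integrin genes Itgae, Itga1 and Itgad, the egress receptor gene S1pr1, the selectin ligand gene Selplg, the chemokine receptor gene Ccr7, the transcription factor gene Klf2, the interleukin-7 receptor gene Il7r and the early activation gene Cd69. The 9 genes were taken by symbol from 32285 annotated genes, and none of them was used to define a cell type. Their UMIs (unique molecular identifiers, each standing for 1 captured RNA) were counted in 13655 of 57078 cells. These cells had at least 250 genes and at most 5% mitochondrial UMIs and carried the markers of CD8+ T cells (7646 cells), CD4+ T cells without Foxp3 (2305), Foxp3+ regulatory T (Treg) cells (1179), NK cells (1355) or B cells (1170).

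Lymphocytes enter a tissue from blood, and most leave again by following sphingosine-1-phosphate, a lipid that is scarce inside tissues and abundant in blood and lymph. KLF2 switches on the genes of recirculation, S1pr1 among them, while CD69 pulls the S1PR1 protein off the cell surface. T cells that settle in a tissue typically lower KLF2, keep CD69 and carry integrins that hold them to epithelium (CD103, from Itgae) or to collagen (CD49a, from Itga1).

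Single-cell 3' RNA sequencing was done on 1 mouse from each of 6 groups. The methods describe tumors grown in the ovarian bursa from KPCA, a mouse ovarian cancer line able to repair DNA by homologous recombination, in female C57BL/6 mice 6 to 8 weeks old, with 2DG and the antibody given from day 9, 2FF after implantation, and collection on day 30. The groups were control (solvent and control rat IgG), 2DG (2-deoxy-D-glucose, which disturbs N-glycan branching), 2FF (an inhibitor of fucosylation), anti-PD-L1 (an antibody that blocks the ligand of the PD-1 checkpoint), and anti-PD-L1 with either 2DG or 2FF, each named as a sum of both. The tumor cells of the 2FF arms had been exposed to 2FF before injection.

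The sample labels call the tissue lymph node and the series text speaks of young and aged mice, whereas the methods describe tumors. Markers of tissue were summed over all cells of the 6 libraries with at least 250 genes and at most 5% mitochondrial UMIs. There, 5 of 8 lymph node stroma markers, Ccl21a, Madcam1, Glycam1, Ccl19 and Prox1, had 2, 5, 7, 26 and 56 UMIs. The other 3, which B cells or macrophages can also carry, had 626 (Lyve1), 1279 (Cr2) and 30170 (Pdpn). The epithelial genes Krt8, Krt18, Krt19 and Epcam had 2467, 3109, 377 and 1466. Krt8 ranged from 47 UMIs in control to 973 in 2FF plus anti-PD-L1. Only 3 to 19 cells per library were gated as keratin-positive, with at least 5 UMIs of these genes. The libraries held 61859753 to 73885214 UMIs each. The control library stood apart, with 385 gated lymphocytes against 2001 to 3057 in the other libraries, and with 2047 neutrophils against 98 to 157. Any pair of libraries shared 16 to 34 cell barcodes, of which at most 4 were gated lymphocytes in both. With 1 mouse per treatment, a treatment could be tested only by taking the effects of drug and antibody to add, whereas each mouse contributed every class, so that differences between classes could be tested over 6 mice.

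Levels are given as CPM, the UMIs of a gene per 1000000 UMIs of that class in that library, as the lowest, median and highest of the 6 libraries. They compare 1 gene between cells and not 1 gene with another. Differences between classes are log2 fold changes ± SE from edgeR's quasi-likelihood test on the summed UMIs, with the mouse as a block (n = 6 mice) and p-values adjusted over 10308 genes. A gene was called when its adjusted p was under 0.05 and its difference at least 2-fold. Because the mice also differed in treatment, the spread behind these tests holds the treatments too.

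Promoter sequence from RefSeq (GRCm38.p6) was matched for 3 of the 9 genes, Itga1, Klf2 and Il7r. Itga1 and Klf2 are shown. Il7r is left out because the stretch matched before its RefSeq start lies inside the annotated gene. Capitals mark matches to the KLF motif CACCC or its reverse complement GGGTG. The sequences run 5′ to 3′ and end 1 base before the start of the annotated gene, at chr13:115101965-115102214 on the minus strand and chr8:72318812-72319032 on the plus strand.
Itga1: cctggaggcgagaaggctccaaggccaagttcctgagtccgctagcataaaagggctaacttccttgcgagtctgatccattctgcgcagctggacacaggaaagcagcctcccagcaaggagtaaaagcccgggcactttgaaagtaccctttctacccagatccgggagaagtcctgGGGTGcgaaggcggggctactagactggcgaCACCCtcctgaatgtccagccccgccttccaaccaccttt
Klf2: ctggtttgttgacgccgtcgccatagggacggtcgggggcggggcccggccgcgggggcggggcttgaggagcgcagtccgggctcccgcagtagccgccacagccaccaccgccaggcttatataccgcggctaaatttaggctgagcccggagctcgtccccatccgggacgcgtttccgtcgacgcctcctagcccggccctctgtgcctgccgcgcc

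In the 250 bases before the RefSeq start site, Itga1 held 2 KLF matches, 71 and 40 bases before the start, and Klf2 held 1, 19 bases before the start and outside the stretch printed. Such a match occurs in 52.01% of 32851 mouse promoters of this length. The FOXO motif GTAAACA (3.166% of promoters), the RUNX motif TGTGGT (14.05%) and the AP-1 motif TGANTCA (6.749%), searched on both strands, had no match in any of the 3 windows. None of the motif matches overlapped another.

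**Figure D1:**
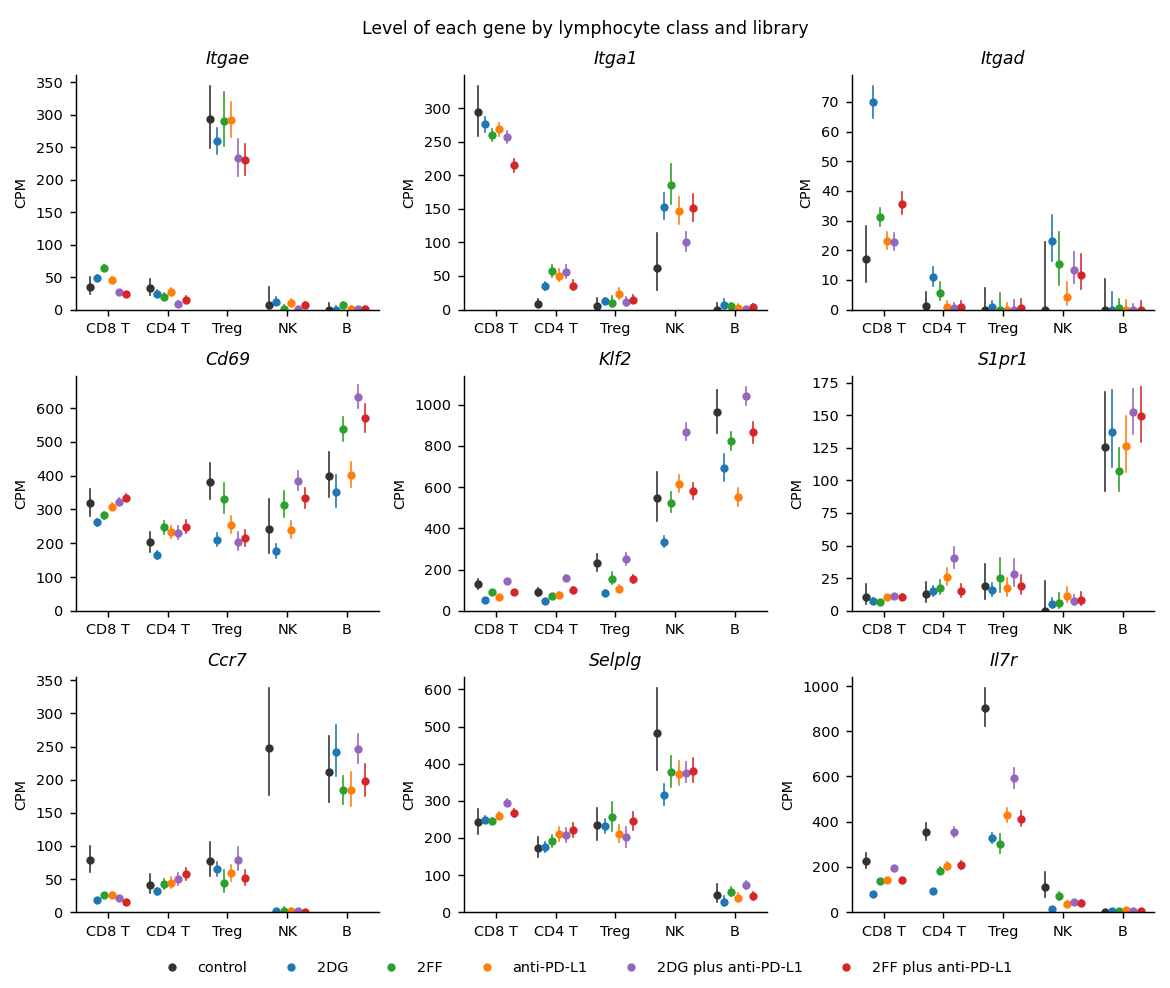
Level of each of the 9 genes in CPM on a linear axis from 0, in CD8+ T, CD4+ T, Treg, NK and B cells. Each point is the sum over the cells of 1 class in 1 library, coloured by treatment, and each line is its exact 95% Poisson interval. Itgae stood highest in Treg cells (230 to 294 CPM), Itga1 in CD8+ T cells (214 to 294 CPM), and S1pr1 in B cells (107 to 152 CPM).

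Of the 3 integrin genes, Itga1 and Itgad were both highest in CD8+ T cells, whereas Itgae had another pattern. Itgae encodes the alpha chain of CD103, which binds E-cadherin on epithelium, and its level was highest in Treg cells, at 230, 275 and 294 CPM. CD8+ T cells had 24.2, 40.2 and 64.2 CPM, and CD4+ T cells 8.01, 21.8 and 33.1 CPM. The Treg range lay above both others without overlap, while the CD8+ and CD4+ ranges overlapped and the CD8+ value was still the higher in all 6 mice. Itgae was 3.78 ± 0.20 log2 units higher in Treg than in CD4+ T cells (adjusted p = 1.3e-13) and 1.07 ± 0.20 higher in CD8+ than in CD4+ T cells (adjusted p = 1.9e-04). An Itgae UMI was found in 47.5% to 63.2% of Treg cells and 8.28% to 16.5% of CD8+ T cells, against 0.602% to 2.53% of macrophages, which do not carry CD103 as a rule and whose cells held more UMIs each. NK cells, with 47 UMIs in 6 libraries, and B cells, with 15, are read as background. The gene, at chr11:73090583-73147446 on the plus strand (GRCm38), overlaps Haspin on the opposite strand, which had 903 UMIs in the gated cells.

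Itga1, the alpha chain of the collagen receptor CD49a, had another order among T cells. CD8+ T cells held 214, 264 and 294 CPM, CD4+ T cells 7.48, 43.0 and 56.9 CPM, and Treg cells 5.81, 11.4 and 22.6 CPM. NK cells, in which CD49a marks the tissue-resident kind, held 62.0, 149 and 185 CPM. The CD8+ range overlapped with none of these. Itga1 was 2.67 ± 0.20 log2 units higher in CD8+ than in CD4+ T cells (adjusted p = 3.9e-10) and 1.59 ± 0.31 lower in Treg than in CD4+ T cells (log2 fold change -1.59, adjusted p = 3.6e-04). NK cells were lower than CD8+ T cells in all 6 mice, by less than 2-fold (-0.89 ± 0.19, adjusted p = 5.0e-04). Itga1 spans chr13:114953096-115101964 on the minus strand and contains Pelo on the same strand (1379 UMIs in the gated cells), so that reads of the shared stretch cannot be assigned with certainty. The NK gate does not separate NK cells from other innate lymphoid cells with the same receptors.

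Itgad, the alpha chain of the beta2 integrin CD11d, is best known from macrophages, yet macrophages had only 0.355 to 1.08 CPM here. CD8+ T cells had 16.9, 27.1 and 69.8 CPM, and NK cells 0, 12.6 and 23.2 CPM. CD4+ T cells had 0.40, 0.93 and 10.8 CPM, and 46 of their 67 UMIs came from the 2DG library. Treg cells had 3 UMIs and B cells 1 UMI in all. Itgad was 3.33 ± 0.24 log2 units higher in CD8+ than in CD4+ T cells (adjusted p = 6.3e-13) and lower in NK than in CD8+ T cells (-1.40 ± 0.22, adjusted p = 3.5e-06). It lies at chr7:128154376-128223816 on the plus strand, with 4931431B13Rik on the opposite strand (539 UMIs in the gated cells).

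Cd69, whose product holds lymphocytes in tissue by removing S1PR1 from the surface, was present in every class. Its levels were 261, 313 and 335 CPM in CD8+ T cells, 164, 232 and 249 CPM in CD4+ T cells and 204, 235 and 381 CPM in Treg cells. They were 177, 278 and 385 CPM in NK cells and 352, 470 and 634 CPM in B cells. B cells lay above CD8+ and CD4+ T cells, and CD8+ above CD4+ T cells, without overlap, while the other neighbouring ranges overlapped. Among the 4 class comparisons Cd69 was called in B over CD4+ T cells, where it was 1.34 ± 0.14 log2 units higher (adjusted p = 5.5e-09). CD8+ T cells exceeded CD4+ T cells in all 6 mice, by less than 2-fold (0.50 ± 0.13, adjusted p = 0.0064).

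Among the genes of egress, S1pr1 was low in T and NK cells and high in B cells. It had 6.58, 10.5 and 11.1 CPM in CD8+ T cells, 12.8, 16.4 and 40.4 CPM in CD4+ T cells, and 15.8, 19.4 and 28.3 CPM in Treg cells. In NK cells it had 0, 6.80 and 11.4 CPM, and in B cells 107, 132 and 152 CPM. B cells stood above every other class with no overlap, and CD8+ T cells stood below CD4+ T cells. The differences were 2.84 ± 0.15 log2 units for B over CD4+ T cells (adjusted p = 3.2e-18) and -1.18 ± 0.16 for CD8+ over CD4+ T cells (adjusted p = 4.0e-07). For Treg over CD4+ T cells the value was -0.08 ± 0.19 (adjusted p = 0.82), and for NK over CD8+ T cells -0.31 ± 0.25 (adjusted p = 0.31).

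Klf2 followed another order, with NK and B cells far above T cells. It had 52.7, 90.1 and 145 CPM in CD8+ T cells, 49.6, 84.7 and 159 CPM in CD4+ T cells and 88.5, 155 and 252 CPM in Treg cells. NK cells had 335, 563 and 869 CPM and B cells 552, 844 and 1042 CPM. Neither NK nor B cells overlapped with a T cell class. Klf2 was 2.72 ± 0.14 log2 units higher in NK than in CD8+ T cells (adjusted p = 2.8e-15) and 3.41 ± 0.14 higher in B than in CD4+ T cells (adjusted p = 1.7e-17). CD8+ and CD4+ T cells did not differ beyond their spread (0.04 ± 0.14, adjusted p = 0.87), and Treg cells exceeded CD4+ T cells in all 6 mice by less than 2-fold (0.82 ± 0.14, adjusted p = 7.4e-05). NK cells thus combined high Klf2 with S1pr1 near the CD8+ level, while B cells were high in both. Tissue digestion can also change Klf2, and its part in these class differences was not tested.

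Ccr7 encodes the receptor that guides naive lymphocytes and mature dendritic cells to lymph nodes. B cells had 184, 205 and 247 CPM, Treg cells 44.8, 61.6 and 79.5 CPM, CD4+ T cells 31.3, 43.1 and 57.3 CPM, and CD8+ T cells 15.0, 23.8 and 78.3 CPM. NK cells had 0.69, 2.03 and 248 CPM, and the highest value was 40 UMIs in a single cell of the 23 NK cells of the control library. Single cells with many Ccr7 UMIs were also found among T cells, so the 3 mature dendritic cell markers Fscn1, Ccl22 and Cacnb3 were counted in each cell, a choice made after these values were seen. Of 7646 CD8+ T cells, 39 had at least 3 UMIs of these markers, and those 39 cells held 605 of 1250 Ccr7 UMIs (48.4%). Among CD4+ T cells, 16 of 2305 cells held 300 of 669 Ccr7 UMIs (44.8%), and among NK cells 2 of 1355 held 40 of 53 (75.5%). In Treg cells the share was 2.82% and in B cells 0.596%. For each of the other 8 genes, such cells held at most 2.14% of the UMIs in the 3 T cell classes. In NK cells they held 8.51% of the Itgae and 5.32% of the Il7r UMIs, and in B cells 7.14% of the Il7r UMIs.

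**Figure D2:**
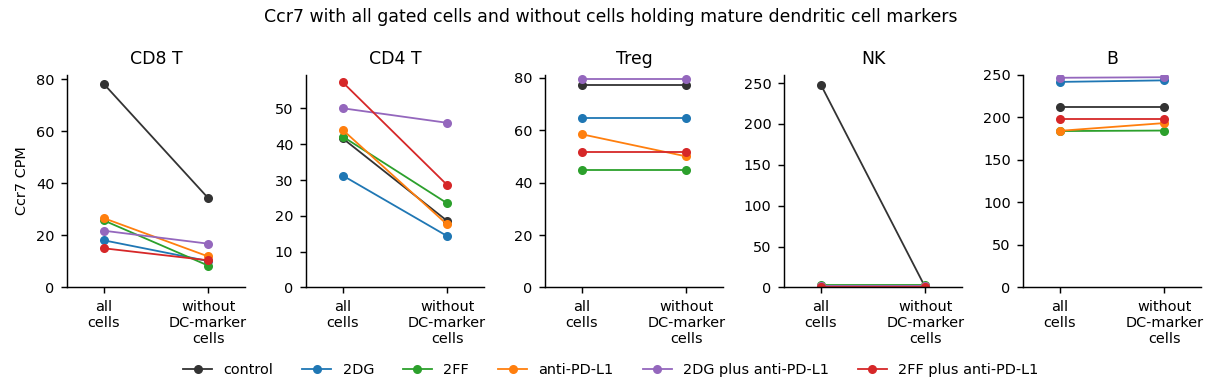
Ccr7 level in CPM on linear axes from 0, for each class and library, with all gated cells (left of each panel) and without the cells holding at least 3 UMIs of Fscn1, Ccl22 and Cacnb3 (right, DC-marker cells). The control NK value went from 248 to 0 CPM and the control CD8+ T value from 78.3 to 34.4 CPM, while B cells hardly moved.

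Leaving those cells out was a choice made from Ccr7 itself, so its adjusted p-values without them are no independent test. Of 33 CD8+ T cells with at least 10 Ccr7 UMIs, 20 held the markers, and the others stayed in. Without those that held the markers, CD8+ T cells had 8.39, 11.2 and 34.4 CPM and CD4+ T cells 14.3, 21.0 and 46.0 CPM. NK cells had 0, 1.91 and 2.36 CPM, and the Treg and B cell ranges were as before. Treg cells were then called over CD4+ T cells (1.32, adjusted p = 6.2e-06) where they had not been with all cells (0.51 ± 0.44, adjusted p = 0.44). NK cells were called below CD8+ T cells (-2.77, adjusted p = 1.4e-05) where they had not been (-1.61 ± 0.72, adjusted p = 0.070). B cells were called over CD4+ T cells in either case, at 2.45 ± 0.39 with all cells (adjusted p = 1.4e-05). CD8+ over CD4+ T cells stayed under 2-fold both ways, at -0.83 ± 0.40 with all cells (adjusted p = 0.15) and -0.97 without those with dendritic cell markers (adjusted p = 3.2e-04).

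Selplg encodes PSGL-1, the ligand by which leukocytes roll on P-selectin once it is fucosylated and sialylated. Its glycans were not measured in these cells. NK cells had the most, at 317, 377 and 484 CPM, followed by CD8+ T cells (243, 255 and 295), Treg cells (201, 233 and 255) and CD4+ T cells (173, 200 and 221 CPM). The highest NK value was that of the control library, at 440 CPM without its 1 cell with dendritic cell markers. B cells had 28.1, 44.9 and 72.2 CPM and macrophages 91.5 to 111 CPM. NK cells did not overlap with the T cell classes, and B cells lay below every other class. Selplg was 1.79 ± 0.12 log2 units lower in B than in CD4+ T cells (log2 fold change -1.79, adjusted p = 2.2e-15). NK over CD8+ T cells (0.56 ± 0.09) and CD8+ over CD4+ T cells (0.43 ± 0.09) were under 2-fold with all 6 mice in the same direction. Of 10 enzyme genes that build the P-selectin ligand glycan, 8 were tested. St3gal6 was called higher in CD8+ than in CD4+ T cells and lower in Treg than in CD4+ T cells. B4galt1, Gcnt1 and St3gal6 were called higher in NK than in CD8+ T cells. In B over CD4+ T cells, where Selplg was lower, St3gal6 and Tpst1 were called higher and St3gal4 lower.

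Il7r, the survival receptor of resting T cells, was highest in Treg cells. It had 300, 421 and 904 CPM there, 92.8, 206 and 356 CPM in CD4+ T cells and 79.1, 141 and 228 CPM in CD8+ T cells. NK cells had 13.2, 42.7 and 112 CPM and B cells 0, 5.69 and 9.74 CPM. The highest NK value was that of the control library, at 13.5 CPM without its 1 cell with dendritic cell markers. The CD4+ range overlapped with the Treg and the CD8+ range, the Treg range lay above the CD8+ range, and the order Treg, CD4+ and CD8+ held in each of the 6 mice. Il7r was 1.15 ± 0.16 log2 units higher in Treg than in CD4+ T cells (adjusted p = 3.8e-06). It was lower in NK than in CD8+ T cells (-1.74 ± 0.20, adjusted p = 1.6e-07) and in B than in CD4+ T cells (-5.03 ± 0.29, adjusted p = 2.8e-13). CD8+ over CD4+ T cells gave -0.52 ± 0.15, under 2-fold.

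**Figure D3:**
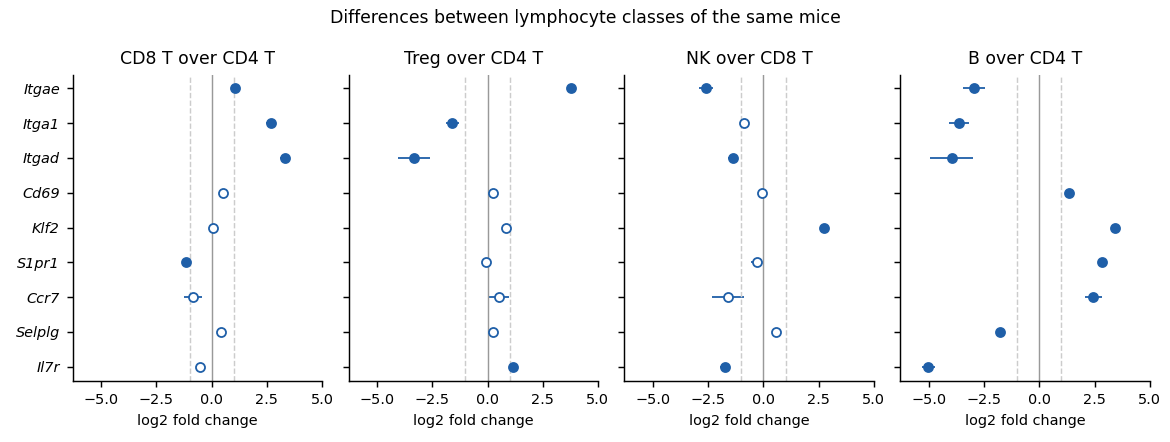
Log2 fold change of each of the 9 genes between 2 classes of the same mice (n = 6 mice), one panel per comparison. Points are edgeR estimates and bars are SE, filled points passed an adjusted p of 0.05 and 2-fold, and dashed lines mark 2-fold. All 9 points are filled for B over CD4+ T cells and 4 are filled in each other panel.

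Counted over the 9 genes, 4 were called between CD8+ and CD4+ T cells (Itga1, Itgad and Itgae higher, S1pr1 lower), where 6.23% of the 10308 genes tested were called, 1.44% higher and 4.79% lower. Between Treg and CD4+ T cells 4 were called (Itgae and Il7r higher, Itga1 and Itgad lower), against 8.21% of all genes (3.92% higher and 4.29% lower), and the Itgad call there rests on 3 Treg UMIs and was lost without the 2DG library (adjusted p = 0.051). For NK over CD8+ T cells 4 were called (Klf2 higher, Il7r, Itgad and Itgae lower), against 16.7% (7.52% higher and 9.17% lower). All 9 were called between B and CD4+ T cells, against 26.5% (11.2% higher and 15.3% lower), and the Itgad call there rests on 1 B cell UMI against 67 in CD4+ T cells, 46 of them from the 2DG library. The calls for Itgae and S1pr1 between CD8+ and CD4+ T cells stood close to 2-fold. Without the 2FF library Itgae was at 0.90 and without the 2DG plus anti-PD-L1 library at 0.99, and S1pr1 was at -0.98 without the latter. Treg over CD4+ Il7r was at 0.99 without the 2DG library.

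Other genes linked to residency and to egress were counted by list. Of 25 residency genes, 24 were tested between CD8+ and CD4+ T cells, and 1, Ahr, was called (lower), with a median log2 fold change of -0.13 beside 0.01 over all genes. Between Treg and CD4+ T cells 4 residency genes were called higher (Cxcr3, Itgb7, Rgs2 and Tgfbr1) and 5 lower (Cxcr6, Itgal, Itgb1, Runx3 and Tgfbr2). Itgb7 encodes the beta chain that pairs with CD103, and it was thus called in the same direction as Itgae. For NK over CD8+ T cells 3 residency genes were called higher and 4 lower, and for B over CD4+ T cells 1 higher and 11 lower. Of 22 egress genes, 21 were tested, and NK cells had 7 higher than CD8+ T cells (Bach2, Klf3 and S1pr5 among them) and 2 lower (Ccr9 and Cxcr5). Over CD4+ T cells, the egress list had 2 higher and 2 lower in CD8+ T, 1 higher and 4 lower in Treg, and 8 higher and 4 lower in B cells. The shares of all genes called are those given above. S1pr5 is the sphingosine-1-phosphate receptor by which NK cells leave tissue, and it was called higher in NK than in CD8+ T cells and higher in CD8+ than in CD4+ T cells. Of 18 partner genes listed as made by other cells, 5 were tested in the lymphocyte sums. The gene of the CD103 ligand E-cadherin, Cdh1, was called higher in CD8+ than in CD4+ T cells. It was called lower in NK than in CD8+ T cells and in B than in CD4+ T cells. Within CD8+ T cells, Cdh1 was called higher in those with an Itgae UMI. Icam1 was called higher in NK than in CD8+ T cells, and Plpp3 higher in B than in CD4+ T cells. Over all cells within the limits of gene number and mitochondrial UMIs, lymphocytes included, Cdh1 had 14707 UMIs. The integrin ligands Icam1 and Vcam1 had 35833 and 6379, P-selectin (Selp) 2217, and interleukin-7 (Il7) 293.

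Within CD8+ T cells the genes of egress went together and against Itgad. Cells with a UMI of Tcf7, a factor of naive and stem-like T cells, and none of Havcr2, a receptor of exhausted T cells, were compared with cells of the reverse pattern in the same mouse. The control library gave 19 cells of the first kind, fewer than the 20 required, so 5 mice entered the tests of CD8+ T cells split in this way, while the ranges of the more common kind cover all 6 libraries. Klf2 had 144, 304 and 447 CPM in Tcf7+Havcr2- cells and 20.7, 42.5 and 62.4 CPM in Havcr2+Tcf7- cells. S1pr1 had 26.0, 40.6 and 61.1 CPM against 2.18, 2.70 and 3.90 CPM, and Il7r 237, 407 and 572 CPM against 36.7, 102 and 129 CPM. For these 3 genes the ranges did not overlap. The log2 fold changes were 2.76 ± 0.08 for Klf2 (adjusted p = 3.0e-18), 3.92 ± 0.22 for S1pr1 (5.5e-13) and 2.32 ± 0.17 for Il7r (3.0e-05), all as adjusted p.

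Ccr7 was higher as well, at 22.0, 74.5 and 146 CPM against 5.82, 6.70 and 20.5 CPM (3.27 ± 0.58, adjusted p = 0.014), and at 4.16 (adjusted p = 3.7e-16) without the cells that held dendritic cell markers. Its call with all cells was lost when the anti-PD-L1 (adjusted p = 0.053) or the 2FF plus anti-PD-L1 library (3.24, adjusted p = 0.058) was left out, with the fold change about as large. Itgad was lower in Tcf7+Havcr2- cells of all 5 mice, with overlapping ranges (2.26, 19.1 and 31.5 CPM against 21.5, 27.7 and 66.8 CPM, -1.16 ± 0.25, adjusted p = 0.0033). Itga1 was lower in all 5 mice but by less than 2-fold (113, 169 and 206 CPM against 229, 256 and 312 CPM, -0.61 ± 0.08), and its 2 ranges did not overlap. Cd69 was higher in all 5 mice, also by less than 2-fold (0.93 ± 0.08, adjusted p = 7.2e-10), so its transcript moved with that of S1pr1 here. CD69 acts on the S1PR1 protein, which was not measured. Itgae (0.18 ± 0.15, adjusted p = 0.38) and Selplg (0.17 ± 0.07, adjusted p = 0.089) passed no threshold. In all, 5 of the 9 genes were called, against 7.44% of 10195 genes (4.03% higher and 3.41% lower). Of 20 egress genes tested, 10 were called higher, and the residency list had 6 higher and 4 lower of 24. Of 8 naive lymphocyte genes, some of them also on the egress list, 6 were tested, with 4 called higher and 0 lower.

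**Figure D4:**
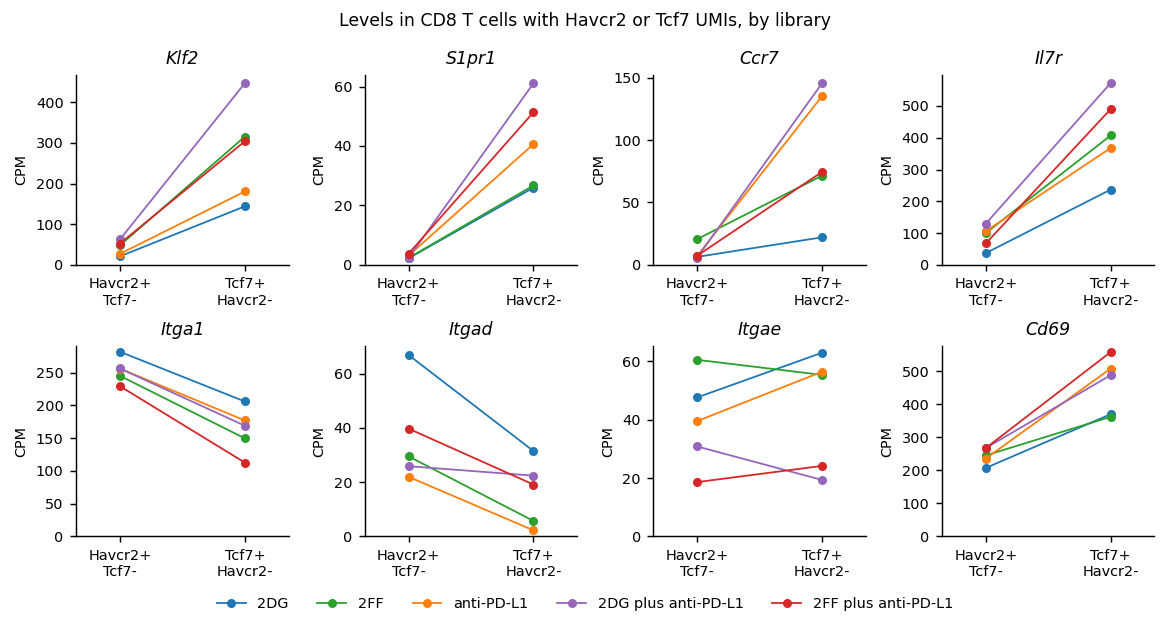
Level in CPM, on linear axes from 0, of 8 genes in CD8+ T cells with a Havcr2 UMI and none of Tcf7 (left) and with a Tcf7 UMI and none of Havcr2 (right). Each line joins the 2 values of 1 library, and the control library is not drawn because it had 19 cells on the right side. All 5 lines rise for Klf2, S1pr1, Ccr7, Il7r and Cd69 and all 5 fall for Itga1 and Itgad, while those for Itgae cross.

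Splitting CD8+ T cells by S1pr1 itself gave the same grouping. Cells with an S1pr1 UMI (53 to 92 per library in 5 mice) had Klf2 at 238, 360 and 661 CPM, against 39.5, 76.9 and 122 CPM in cells with none. Klf2 was thus 2.45 ± 0.16 log2 units higher (adjusted p = 1.3e-06), Il7r 1.51 ± 0.12 (adjusted p = 6.8e-09) and Ccr7 1.76 ± 0.21 (adjusted p = 6.5e-07). Itgad was lower (-2.54 ± 0.31, adjusted p = 1.3e-07), and Itga1 was lower in all 5 mice by less than 2-fold (-0.82 ± 0.11). Cd69 was higher by less than 2-fold (0.46 ± 0.09). Each cell was also thinned to 2000 UMIs, which equalises depth, and cells with fewer were dropped. The cells were then split again by the S1pr1 UMIs left, so the sides did not hold the same cells as before. Over the 6 libraries, 3.57% to 6.19% of CD8+ T cells had an S1pr1 UMI, and 1.56% to 2.48% when thinned. With thinned cells Itga1 passed 2-fold (-1.31, adjusted p = 6.0e-07) and the Ccr7 call was lost (1.30, adjusted p = 0.19). Itgae was called lower (-2.44, adjusted p = 0.00995), against -0.70 ± 0.29 with an adjusted p of 0.16 with all UMIs. Itgae was also called lower without the 2DG library (-1.06, adjusted p = 0.0065). Of the 8 genes tested 4 were called, against 3.44% of 10980 genes (1.86% higher and 1.58% lower), and 11 of 22 egress genes were called higher (Bach2, Klf3, Lef1, S1pr5 and Tcf7 among them). Of the naive list 7 genes were tested, with 5 called higher and 0 lower, against 0 of 7 in the split by Itgae below.

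Splitting CD8+ T cells by Itgae gave smaller differences. Cells with an Itgae UMI (101 to 318 per library in 5 mice) had Itga1 at 400, 417 and 491 CPM against 188, 241 and 262 CPM, with no overlap, and were higher by 0.93 ± 0.09 log2 units (adjusted p = 2.7e-04). Klf2 was lower in all 5 mice (-0.62 ± 0.11, adjusted p = 0.0019). With thinned cells, split again by the Itgae UMIs left, it reached -1.05 and was called. Il7r (0.43 ± 0.08, adjusted p = 0.0022) and Cd69 (0.33 ± 0.06, adjusted p = 0.0017) were higher in all 5 mice. These 4 had an unadjusted p under 0.05 but none reached 2-fold with all UMIs, so 0 of 8 genes were called by edgeR and 0 by DESeq2, against 0.731% of 11219 genes (0.535% higher and 0.196% lower). In Treg cells edgeR and DESeq2 called 0 of the 6 genes tested in the same split, where 2 had an unadjusted p under 0.05 in edgeR (Il7r and S1pr1), against 0.216% of 6935 genes (0.101% higher and 0.115% lower), and the nearest was Il7r (0.65 ± 0.15, adjusted p = 0.054), higher in all 6 mice. Thus Itgae and Itga1, far apart between classes, were found together within CD8+ T cells, and cells with an Itga1 UMI had 2.22 to 6.44 CPM of S1pr1 in the 6 libraries against 9.14 to 21.1 CPM in cells with none, a description with no test.

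Between treatments, values are those of single mice and have no p-value of their own. A ratio is the log2 of the ratio of CPM + 5, and a gene needed 50 UMIs or more over both libraries. The intervals given for it are 95% intervals of the UMI ratio and cover counting error only. Comparisons share the control, 2DG, 2FF and anti-PD-L1 libraries, so they are not independent of each other, and a class sum cannot tell fewer cells with a transcript from less of it per cell. Klf2 and Il7r differed between libraries in several classes. In CD8+ T cells Klf2 had 129 CPM in control, 52.7 in 2DG, 89.3 in 2FF, 65.0 in anti-PD-L1, 145 in 2DG plus anti-PD-L1 and 91.0 CPM in 2FF plus anti-PD-L1. Il7r had, in the same order, 228, 79.1, 136, 142, 196 and 141 CPM. The 2DG library was lowest for both genes, and the control and 2DG plus anti-PD-L1 libraries were the 2 highest for both.

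For 2DG over control in CD8+ T cells, Klf2 was at -1.21 (interval -1.59 to -0.97) and Il7r at -1.47 (-1.76 to -1.29), where 0.921% of 9557 genes were lower by at least 2-fold. For 2DG plus anti-PD-L1 over 2DG, Klf2 was at 1.38 (1.31 to 1.61) and Il7r at 1.26 (1.19 to 1.44), where 0.681% of 10861 genes were higher by that much. Over anti-PD-L1 alone, the combination was at 1.10 (1.03 to 1.28) for Klf2 (0.445% of genes) and at 0.46 for Il7r. With cells thinned to an equal depth, a Klf2 UMI was found in 7.56% of CD8+ T cells in 2DG and 16.8% in 2DG plus anti-PD-L1 (15.7% and 27.3% unthinned). These shares followed the CPM.

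Klf2 was also lowest in the 2DG library in CD4+ T, Treg and NK cells, whereas in B cells it was lowest in the anti-PD-L1 library. In CD4+ T cells, 2DG plus anti-PD-L1 over 2DG gave 1.59 (1.44 to 1.93) for Klf2, 1.87 (1.75 to 2.10) for Il7r and 1.18 (0.96 to 1.90) for S1pr1, against 1.73% of 8963 genes higher by 2-fold. Ccr7 there was at 0.60 with all cells and at 1.40 without those that held dendritic cell markers. The value for Klf2 was 1.46 in Treg cells (0.713% of genes) and 1.36 in NK cells (1.23%), and Il7r in NK cells was at 1.40 and Cd69 at 1.10. Il7r in CD4+ T cells was at -1.88 for 2DG over control (1.25% of genes lower). Il7r in Treg cells had 904 CPM in control, 327 in 2DG, 300 in 2FF, 429 in anti-PD-L1, 592 in 2DG plus anti-PD-L1 and 413 CPM in 2FF plus anti-PD-L1. Of the 68 control Treg cells, 66 had an Il7r UMI (97.1%), against 57.3% to 75.8% in the other 5 libraries, and with thinned cells the shares were 78.8% and 38.2% to 57.2%. The 2DG, 2FF and anti-PD-L1 libraries over control were at -1.45, -1.57 and -1.07, where 1.22%, 1.93% and 1.19% of genes were lower by 2-fold. Klf2 in Treg cells was at -1.34 for 2DG and -1.08 for anti-PD-L1 over control, and the combination of 2DG with the antibody was at 1.19 over the antibody alone (0.691% of genes higher). In NK cells Il7r was at -1.50 for anti-PD-L1 over control (2.95% of genes lower), but 16 of the 18 control UMIs came from the 1 cell with dendritic cell markers. Without it the value was 1.16, which rests on the few control UMIs left.

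Klf2 is also among the transcripts that change while tissue is being digested, so a list of 18 dissociation and stress genes without the 9 genes was summed in each library. In CD8+ T cells it had 5313 CPM in control, 4200 in 2DG, 5720 in 2FF, 4356 in anti-PD-L1, 5872 in 2DG plus anti-PD-L1 and 4706 CPM in 2FF plus anti-PD-L1. Here too 2DG was lowest and 2DG plus anti-PD-L1 highest, as in CD4+ T cells (3693 and 6004 CPM) and NK cells (5676 and 9702 CPM), whereas in Treg and B cells the control library was highest. For that pair of libraries in CD8+ T cells, 4 of 18 genes were higher by 2-fold and 2 lower, with a median of 0.54 against -0.03 over all genes. In NK cells 7 of 18 were higher and 2 lower, with a median of 0.91 against -0.02. The median of the list was 0.85 in CD4+ T, 0.44 in Treg and 0.51 in B cells. Klf2 itself was highest in the 2DG plus anti-PD-L1 library in macrophages (463 CPM against 251 to 404 in the others) and neutrophils (1274 against 741 to 1144) as well, as in all 5 lymphocyte classes. In CD8+ T, Treg and B cells its Poisson interval in that library overlapped with that in control. Between classes, 5 of the 18 genes were called higher and 1 lower for NK over CD8+ T cells. The median of the list there was 0.56 against -0.08 over all genes. For B over CD4+ T cells 7 were called higher and 2 lower (0.61 against -0.02). CD8+ over CD4+ T cells had 1 higher and 0 lower, and Treg over CD4+ T cells had 0 either way. The shares of all genes called in these comparisons are given above. The part of dissociation in the Klf2, Il7r and Cd69 differences, between libraries or between classes, was not tested.

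**Figure D5:**
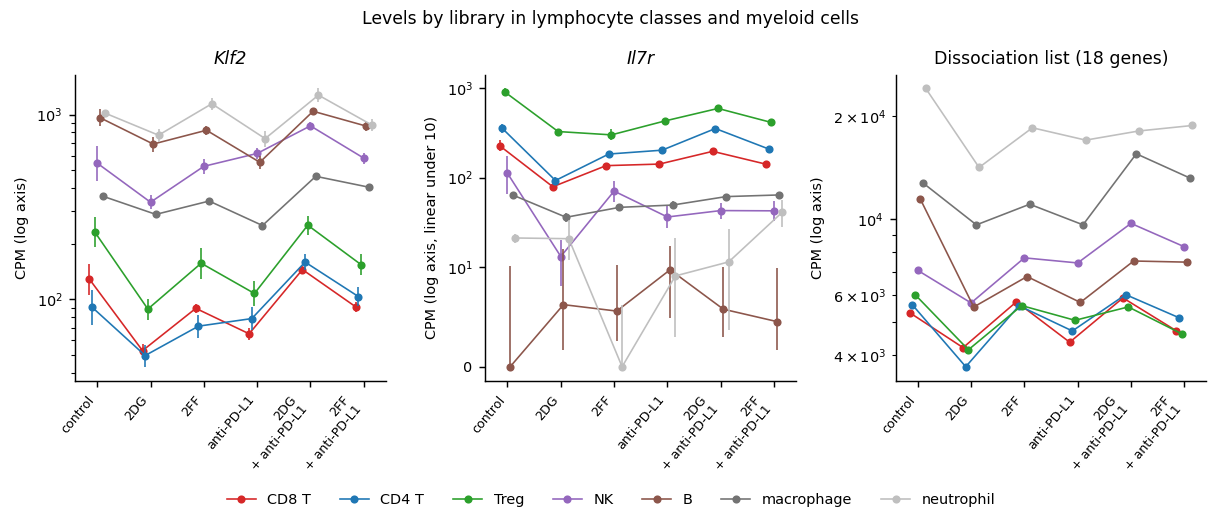
Level in CPM on log axes (Il7r linear under 10) of Klf2, of Il7r and of the 18-gene dissociation list in the 6 libraries, for the 5 lymphocyte classes, macrophages and neutrophils. Points of 1 cell type are joined to guide the eye, and bars on Klf2 and Il7r are exact 95% Poisson intervals. Klf2 peaked in the 2DG plus anti-PD-L1 library in each of the 7 cell types, but in CD8+ T, Treg and B cells its interval there overlapped with that of control.

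The adhesion genes differed between libraries in fewer comparisons. Itgad in CD8+ T cells had 16.9 CPM in control, 69.8 in 2DG, 31.2 in 2FF, 23.1 in anti-PD-L1, 22.9 in 2DG plus anti-PD-L1 and 35.7 CPM in 2FF plus anti-PD-L1. The 2DG library stood alone at the top, at 1.78 over control (1.29 to 2.93, from 14 control UMIs, with 1.28% of genes higher by 2-fold). 2DG plus anti-PD-L1 over 2DG was at -1.43 (-1.83 to -1.40, with 0.285% of genes lower). Itgae in CD8+ T cells had 34.9, 48.7, 64.2, 45.5, 27.5 and 24.2 CPM in the same order, lowest in the 2 combinations. It was at -1.24 (-1.62 to -1.19) for 2FF plus anti-PD-L1 over 2FF, where 0.411% of genes were lower by 2-fold, and at -0.99 with thinned cells. In CD4+ T cells Itgae was lowest in 2DG plus anti-PD-L1, at 8.01 CPM from 20 UMIs in 418 cells. There 2.15% of cells had an Itgae UMI, against 0.602% to 2.53% of macrophages, whose cells held more UMIs each. The 8.01 CPM lay above the 0.672 to 4.05 CPM of macrophages. With thinned cells, at least 1.07% of CD4+ T cells in each library had an Itgae UMI, against 0.155% to 0.768% of macrophages. The ratios were -1.27 over anti-PD-L1 (0.645% of genes lower) and -1.18 over 2DG (1.37%). Itgae in Treg cells stayed within 230 to 294 CPM.

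Itga1 in CD8+ T cells ranged from 214 CPM in 2FF plus anti-PD-L1 to 294 CPM in control. In CD4+ T cells it had 7.48 CPM in control and 35.0 to 56.9 CPM in the other 5 libraries. The control value came from 7 UMIs in 126 cells, and 2DG, 2FF and anti-PD-L1 were at 1.68 (1.15 to 3.57), 2.31 (1.85 to 4.27) and 2.15 (1.67 to 4.09) over it, where 1.46%, 1.91% and 1.63% of genes were higher by 2-fold. In NK cells the control library also had the least, 62.0 CPM from 10 UMIs in 23 cells, and 2DG, 2FF and anti-PD-L1 were at 1.24, 1.50 and 1.17, where 6.06%, 5.29% and 6.98% of genes were higher. Selplg stayed within 243 to 295 CPM in CD8+ T cells, 173 to 221 in CD4+ T cells and 201 to 255 CPM in Treg cells across all treatments. In B cells it was at 1.22 for 2DG plus anti-PD-L1 over 2DG ( from 18 UMIs in 2DG, with 1.87% of genes higher).

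Ccr7 in CD8+ T cells had 78.3 CPM in control and 15.0 to 26.6 CPM in the others. It was at -1.85 (2DG), -1.44 (2FF) and -1.40 (anti-PD-L1) over control, where 0.921%, 1.05% and 1.13% of genes were lower by 2-fold. Of the 65 control UMIs 37 came from 1 cell with dendritic cell markers, and without such cells the values were -1.38, -1.56 and -1.22. S1pr1 in CD8+ T cells stayed within 6.58 to 11.1 CPM and Cd69 within 261 to 335 CPM. When the antibody was given in both libraries, 0 of the 9 genes differed by 2-fold with 2FF in CD8+ T cells, where 0.139% of all genes were higher and 0.389% lower by that much (2FF plus anti-PD-L1 against anti-PD-L1). It was 0 in CD4+ T cells (0.351% and 0.327% of all genes) and in Treg cells (0.332% and 0.621%) too, among those of the 9 genes with enough UMIs. In CD8+ T cells the value farthest from 0 was that of Itgae, at -0.79 (-1.14 to -0.68).

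The antibody could be tested over the 3 pairs of libraries that differ in it, with the glycan drug as a block and 2 residual degrees of freedom among 6 mice, a fit chosen after the values above were seen. It takes the effects of drug and antibody to add, although Klf2 and Il7r moved in opposite directions in different pairs. For the antibody, edgeR called 0 of 9 genes tested in CD8+ T cells (0.00795% of all genes called), 0 of 8 in CD4+ T cells (0% of all genes), 0 of 8 in Treg cells (0.1%), 0 of 7 in NK cells (0.0347%) and 0 of 5 in B cells (0.156%). At an unadjusted p under 0.05 the counts were 1, 3, 1, 2 and 0. In CD8+ T cells the antibody term was -0.72 ± 0.30 for Itgae, 0.24 ± 0.65 for Klf2 and 0.27 ± 0.49 for Il7r, each with an adjusted p of 0.999 in edgeR. In the same fit 0 of the genes tested were called for 2DG (0.0159% of all genes in CD8+ T, 0% in CD4+ T, 0.279% in Treg, 0% in NK and 0.132% in B cells) and 0 for 2FF (0%, 0.00958%, 0.0781%, 0.0347% and 0.0239%), where at most 1 gene in a class had an unadjusted p under 0.05. These results do not show that the treatments left the 9 genes unaltered.

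Across the 30 sums of 5 classes in 6 libraries, Pearson's r of log2(CPM + 5) describes which genes had a pattern most like each of the 9. These points share libraries and cell classes, and r mostly follows the differences between classes. S1pr1 was closest to St3gal1, Usp6nl and Xylt1 (r = 0.97, 0.95 and 0.94) and opposite to Selplg (r = -0.94). Among the genes closest to Selplg were St3gal4 and D16Ertd472e (0.97 and 0.96), of which St3gal4 is a sialyltransferase of the selectin ligand glycan. Itga1 was closest to Klrc1, Wdr95 and Atp8b4 (0.95, 0.94 and 0.94), and Itgad to Cd160, Adgrg5 and Wscd2 (0.89, 0.88 and 0.87). Il7r was closest to Icos, Ctla4 and Impa2 (each 0.95), and Itgae to Gm28112, Ankrd6 and Glrx (0.93, 0.92 and 0.92). Klf2 was closest to Ripor2, Tsc22d3 and Arhgef18 (0.95, 0.95 and 0.92), Ccr7 to Atrnl1, P2rx4 and Arhgef11 (0.91, 0.90 and 0.88), and Cd69 to Atf6, H3f3a and Sbk1 (0.81 each). Among the 9 genes, Itga1 and Itgad were at 0.85 and Itgae and Il7r at 0.80, whereas Klf2 and S1pr1 were at 0.46.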

How the data were processed

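For each of 6 libraries made with a 10x 3' kit, the authors deposited a matrix of raw counts, with 1 UMI count for each gene in each cell. The matrix headers name Cell Ranger 7.0.0 and the submitters' processing notes Cell Ranger 3.1.0, with the mm10 genome, which is GRCm38. Whether intronic reads were counted is not given in the sources used here. Gene coordinates are from GENCODE M21.

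Cells with under 250 genes or over 5% mitochondrial UMIs were left out. A T cell had at least 2 UMIs of Cd3d, Cd3e and Cd3g, at most 1 UMI each of the B cell, myeloid and epithelial lists and no Trdc. CD8+ T cells had Cd8a or Cd8b1 without Cd4 and Foxp3, CD4+ T cells Cd4 without Cd8a, Cd8b1 and Foxp3, and Treg cells Foxp3 without Cd8a and Cd8b1. NK cells had at least 2 UMIs of Ncr1, Klrb1c and Klre1 and no Cd3, and B cells at least 2 of a list of B cell markers with Cd79a, Cd79b and Ms4a1 among them. Of 6 myeloid markers chosen, 5 were used. No doublet caller was run and no doublets were removed.

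Counts were summed per class and library (161261 to 13078353 UMIs a sum, each of at least 20 cells). Class differences and splits were fitted with edgeR 4.0.16 in R 4.3.3 (TMM, filterByExpr, quasi-likelihood F test, library as block, Benjamini-Hochberg adjustment over all genes tested), with the gene used for a split left out. This script was tested on simulated data. CPM intervals are exact Poisson and ratio intervals exact conditional binomial at 95%, and they cover counting error only. Drug and antibody were also fitted as additive terms over the 6 libraries of each class with the same tool, an alternative added after the data were seen. Alternatives were looser and stricter gates, a mitochondrial limit of 10%, DESeq2 1.42.0, no filter, no library block, each library left out, cells thinned to 2000 UMIs, CPM + 1, no minimum of UMIs, totals without ribosomal and mitochondrial genes and the mean of each cell's CPM. For thinning, cells with under 2000 UMIs were left out, and splits were made anew on the UMIs left. Leaving out cells with at least 3 UMIs of Fscn1, Ccl22 and Cacnb3 was added after the data were seen.

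The 9 genes are named throughout. The residency, egress, partner, selectin ligand, dissociation and naive lists are given by counts, and not for every comparison. The 3 genes most like each of the 9 had a mean of at least 10 CPM and were not gate markers, and not every gene that this rule or a list picked is reported here. Other genes were chosen after their values were seen. The 9 genes and the lists were chosen with earlier results of these data known.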

Additional observations from a re-analysis of the deposited data

Results flagged for a closer look

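Some effects of adding anti-PD-L1 had opposite directions with and without a second drug. Each value compares CPM + 5 of 2 single mice on the log2 scale, so the differences between the effects were not tested. In CD8+ T cells, anti-PD-L1 over control was at -0.94 for Klf2 and -0.67 for Il7r, whereas 2DG plus anti-PD-L1 over 2DG was at 1.38 and 1.26. The same held in CD4+ T cells for Il7r, at -0.80 and 1.87, and in Treg cells for Klf2, at -1.08 and 1.46, and for Il7r, at -1.07 and 0.85. In B cells Klf2 was at -0.80 and 0.59. In CD8+ T cells the 2DG library was lowest in both genes and in the dissociation list, and the part of dissociation was not tested.

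Itga1 in CD4+ T cells was at 2.15 for anti-PD-L1 over control and at -0.61 for 2FF plus anti-PD-L1 over 2FF. For 2DG plus anti-PD-L1 over 2DG it was at 0.61. The control value there rests on 7 UMIs. In NK cells Itga1 was at 1.17 for anti-PD-L1 over control and at -0.58 for 2DG plus anti-PD-L1 over 2DG, with 10 control UMIs. Il7r in NK cells was at -1.50 for anti-PD-L1 over control, at -0.67 for 2FF plus anti-PD-L1 over 2FF and at 1.40 for 2DG plus anti-PD-L1 over 2DG. In this case 16 of the 18 control UMIs came from 1 cell, and without it anti-PD-L1 over control was at 1.16. With so few control UMIs left, neither value gives a usable direction for anti-PD-L1 over control.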

How the results depend on the processing

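Between classes the mouse is the block, and leaving it out is one of the alternatives. Of the values of the 9 genes in class comparisons and splits under an alternative, 850 kept their direction and their side of the threshold, 13 lost the call, 11 gained it and 0 reversed. Of the treatment values, 1986 moved by less than their counting interval, 82 moved by more and 1 reversed. The last was Il7r in NK cells for anti-PD-L1 over control, at 1.16 without the cells that held dendritic cell markers. That value rests on the few control UMIs left. Of the 82, thinning to 2000 UMIs gave 33, the stricter gate 22 and the mean of each cell's CPM 15.

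With each library left out in turn, the 9 genes gave 2 to 5 calls for CD8+ over CD4+ T cells, 2 to 4 for Treg over CD4+ T cells and 3 to 5 for the Tcf7 and Havcr2 split, with the fewest calls when the 2DG plus anti-PD-L1, the 2DG and the anti-PD-L1 library was left out, in that order. Over all genes, leaving out a library gave 46 to 133 calls for CD8+ T cells split by Itgae (82 with all, fewest without 2FF, 53 without anti-PD-L1 and most without 2FF plus anti-PD-L1) and 10 to 38 for Treg cells split by Itgae (15 with all, most without anti-PD-L1). With no filter on low counts 1163, 1364, 2793 and 4233 genes were called in the 4 class comparisons (642, 846, 1720 and 2734 with it), and 188 and 52 in the CD8+ and Treg splits by Itgae. With no library block these 2 splits gave 27 and 3 calls, with the stricter gate 41 and 4, and with thinned cells 41 and 2. DESeq2 gave 1 in the Treg split. Thinned cells gave 227 calls in the S1pr1 split (378 with all UMIs), 390 in the Tcf7 and Havcr2 split (759) and 1 of the genes described, Klf2, in the CD8+ split by Itgae.

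Without the library block the calls for Itgad were lost in the splits by S1pr1 (-2.60, adjusted p = 0.085) and by Tcf7 and Havcr2 (-1.05, adjusted p = 0.20), and its value in the latter fell under 2-fold without the 2FF (-0.98) or the anti-PD-L1 library. Ccr7 in NK over CD8+ T cells was called without the control library (-3.52) and with the stricter gate (-3.64), and Itgae there was at -0.79 with the looser gate. In treatment comparisons, 15 values passed 2-fold in NK cells with the looser gate, 18 with no minimum of UMIs, 4 with the mean of each cell's CPM and 3 with thinned cells (7 as reported). In B cells these settings gave 2, 6, 2 and 0, and totals without ribosomal and mitochondrial genes gave 2 (1 as reported). Itga1 in NK cells over control fell under 2-fold with the mean of each cell's CPM for 2DG (0.83), 2FF (0.89) and anti-PD-L1 (0.73), and with thinned cells for 2DG (0.93) and anti-PD-L1 (0.78), the last also with the looser gate (0.99) and the mitochondrial limit of 10%. Thinned cells put Klf2 in Treg cells at 0.99 for 2DG plus anti-PD-L1 over 2DG, and the mean of each cell's CPM put S1pr1 in CD4+ T cells just under 2-fold. Il7r in NK cells for that pair was at 0.95 with the looser gate, and Klf2 in Treg cells for anti-PD-L1 over control was at -0.94 with the stricter gate. Leaving out 1 pair at a time, the antibody fit called 0 to 79 genes in CD8+ T (1 with all pairs), 0 to 34 in CD4+ T (0), 2 to 14 in Treg (9), 4 to 27 in NK (3) and 5 to 42 in B cells (13), and 0 of the 9 genes each time. The highest counts came without the 2FF pair in CD8+ T and NK cells, the 2DG pair in CD4+ T and Treg cells and the pair with no drug in B cells. The control library held the fewest NK and B cells, 23 and 55.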
